A study of Gracilariopsis lemaneiformis with 12 samples.

Results

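Transcript levels in the agar-producing red seaweed Gracilariopsis lemaneiformis, strain 981, were compared between algae given 100 µM indole-3-acetic acid (IAA) and untreated algae on day 3 of the treatment. The comparison takes 6 of the series' 12 RNA-seq libraries, 3 with IAA and 3 controls. The other 6 have the same layout at day 1 and are used here for the estimate of spread and for levels set beside day 3. All libraries carry the tissue label rhizoids, although the series' design text also names branches. That label could not be checked against marker genes, because the sequence IDs carry no gene names. Controls are labelled untreated, and no solvent for IAA is named, so an effect of IAA and one of its solvent cannot be told apart. No label says that replicates came from separate cultures, so the spread behind the p-values is that of these libraries and may be technical.

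IAA, the principal natural auxin, is best understood in land plants, where it is known for its roles in cell elongation, branching and the initiation of roots and rhizoids. In flowering plants it is sensed in the nucleus by TIR1/AFB receptors, which mark Aux/IAA repressors for degradation and so release the ARF transcription factors. Red algae are known to contain IAA, but a complete set of these nuclear components has not been recognised in them, and how they perceive auxin is not settled.

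The deposited table gives FPKM, a fragment number corrected for sequence length and for library size, for 30780 assembled sequences. Of these, 23287 are single sequences with IDs of the form Unigene and a number, and 7493 are contigs with CL, a number and a contig number in the ID. Contigs that share the text before ".Contig" are treated here as 1 cluster, and their FPKM were summed, which gave 2479 clusters and 25766 loci in all. A locus is therefore either 1 Unigene or the sum of 1 cluster. Summing relies on how the IDs are built, which the labels leave unexplained. Values were tested as log2(FPKM + 1) for the 14065 sequences and the 11044 loci whose mean over the 12 libraries was at least 1 FPKM. The tested loci were 9133 Unigenes and 1911 clusters. An adjusted p under 0.05 in limma is called a change, with Benjamini-Hochberg adjustment over all sequences or all loci tested, and a fold change on this scale understates the change of low sequences.

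Summed FPKM per library was 305655 to 308835 with IAA and 291205 to 295199 in controls. Relative depth, estimated from the steps between low Unigene values, was 0.977 to 0.982 with IAA and 1.000 to 1.001 in controls. Absolute depth is unknown. Pearson's r of log2(FPKM + 1) across tested sequences was 0.982 to 0.986 between libraries of the same day-3 group and 0.965 to 0.966 between IAA and control libraries. No pair of libraries held identical values.

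With FPKM as deposited, far more loci were higher than lower with IAA at day 3 by limma, a balance that turned with median-of-ratios and quantile scaling. Of 11044 loci, 4290 (38.8%) were higher and 1209 (10.9%) were lower with IAA by limma with adjusted p under 0.05, and 6250 had an unadjusted p under 0.05. A change of at least 1 on the log2 scale was found for 255 higher loci (2.31%) and 26 lower loci (0.235%). The number of such rises depends on the pseudocount of 1 FPKM and on the scaling. It was 1390 loci with a pseudocount of 0.1 FPKM, 570 with 0.5 FPKM, 696 with a common sum, 153 with median-of-ratios size factors, 123 after quantile normalization and 110 with a filter at 5 FPKM. The 26 large falls became 41 with median-of-ratios size factors, 44 after quantile normalization and 13 with that filter. Changes under 0.5 on that scale made up 1587 of the higher and 1097 of the lower calls. At the other end, 40 loci were higher by at least 2 on the log2 scale and 9 by at least 3, while the 2 loci lower by at least 2 were Unigene1460 and Unigene3496, described below. Without any test, all 3 IAA libraries lay above all 3 controls for 5078 loci (46%) and below them for 1598 (14.5%).

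**Figure D1:**
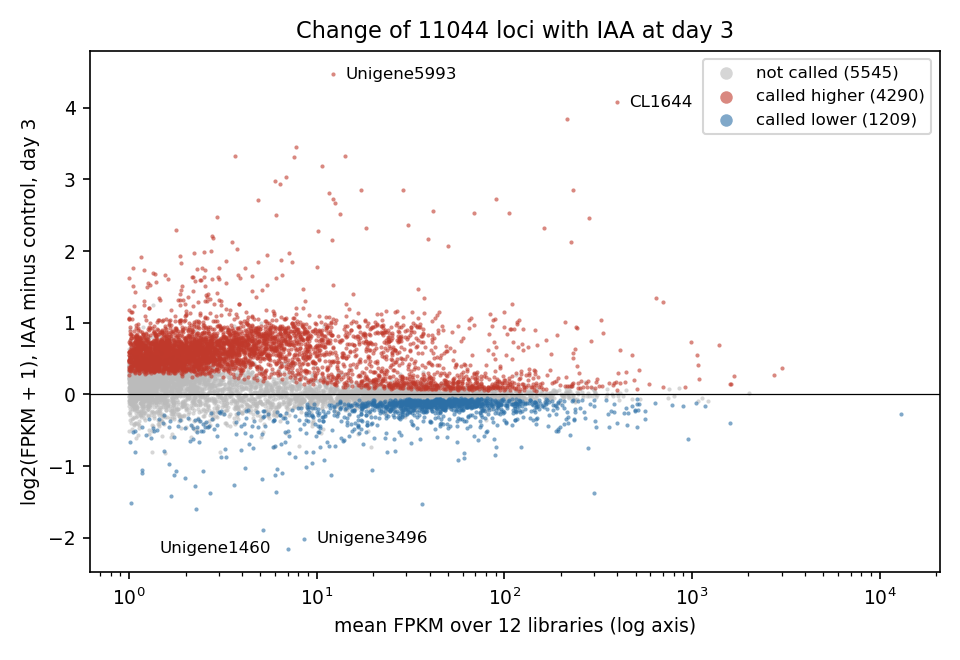
Difference between IAA and control at day 3 in log2(FPKM + 1), for each of the 11044 tested loci, against its mean FPKM over 12 libraries on a log axis. Red points are the 4290 loci called higher with IAA, blue points the 1209 called lower and grey points the others. With FPKM as deposited, loci called higher fill the low end of the abundance axis, where quantile normalization left 453 of them, and the 4 named loci lie at the top and bottom of the cloud.

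The largest rises among loci with at least 5 FPKM in either group were in Unigene5993 and cluster CL1644. Unigene5993 was at 29.58, 28.43 and 27.86 FPKM in the IAA libraries, against 0.39, 0.59 and 0.10 FPKM in the controls. The groups were far apart, and the control values are so low that the number of reads behind them may be small. The locus averaged 28.6 ± 0.876 FPKM with IAA and 0.360 ± 0.246 FPKM in controls (SD, n = 3 each), which is 4.46 ± 0.11 higher in log2 units (SE; limma, adjusted p = 3.98e-11). That size depends on the pseudocount, and with 0.1 FPKM in place of 1 FPKM the change was 6.14.

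Unigene5993 was also higher with IAA at day 1, when it stood at 16.54, 15.82 and 19.11 FPKM with IAA and at 2.87, 2.7 and 2.61 FPKM in controls. The day-1 groups did not overlap, and the log2 change was 2.28 (limma adjusted p = 1.96e-08). The day-3 effect exceeded the day-1 effect by 2.18 ± 0.16 in log2 units (limma interaction, adjusted p = 8.44e-07). Over the 4 groups the order of the levels was day-3 IAA, day-1 IAA, day-1 control and day-3 control, with no overlap between neighbours, so the day-3 IAA libraries were the highest and the day-3 controls the lowest of all 12.

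Cluster CL1644, the sum of 10 contigs, was at 1047.98, 1073.78 and 1062.02 FPKM with IAA and at 64.49, 56.36 and 66.26 FPKM in controls. Its mean was 1061 ± 12.9 FPKM with IAA and 62.4 ± 5.28 FPKM in controls (SD, n = 3 each), which is 4.07 ± 0.10 higher in log2 units (SE; limma, adjusted p = 3.09e-11). It held the same order of groups as Unigene5993. The day-1 libraries lay between those of day 3, at 333.59, 332.01 and 323.6 FPKM with IAA and at 106.42, 148.13 and 146.19 FPKM in controls. Between the days the IAA effect differed by 2.76 ± 0.14 in log2 units, with the larger effect at day 3 (adjusted p = 3.25e-08, limma interaction).

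The largest falls were in Unigene1460 and Unigene3496. Unigene1460 was at 4.34, 3.35 and 2.94 FPKM with IAA, against 17.94, 23.32 and 16.37 FPKM in controls. Its IAA mean of 3.54 ± 0.720 FPKM was 18.4% of the control mean of 19.2 ± 3.64 FPKM (SD, n = 3 each), and its log2 change as a locus was -2.15 ± 0.16 (SE; limma adjusted p = 8.05e-07). The control libraries varied more than those with IAA, but the groups did not overlap. At day 1 Unigene1460 was at 2.27, 2.14 and 1.93 FPKM with IAA and at 3.48, 2.49 and 4.26 FPKM in controls, a log2 difference of -0.48 that did not pass the test (limma adjusted p = 0.0610). The day-3 IAA libraries thus overlapped the day-1 controls, and the 3 day-3 controls stood above the other 9 libraries. Its day-3 minus day-1 effect was -1.67 ± 0.23 in log2 units (limma interaction, adjusted p = 1.44e-04).

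Unigene3496 was at 3.82, 3.29 and 3.04 FPKM with IAA and at 15.79, 17.19 and 16.93 FPKM in controls. The mean was 3.38 ± 0.398 FPKM with IAA, 20.3% of the control mean of 16.6 ± 0.745 FPKM (SD, n = 3 each), and the difference was -2.01 ± 0.07 in log2 units (SE; limma, adjusted p = 7.64e-10). At day 1 the same locus was at 7.85, 7.34 and 8.1 FPKM with IAA and at 6.62, 6.34 and 6.29 FPKM in controls, so IAA was slightly higher there (log2 change 0.24 ± 0.07, limma adjusted p = 0.0308). The effects of the days therefore had opposite signs, and their difference was -2.25 ± 0.10 (limma interaction, adjusted p = 7.55e-09). The day-3 IAA libraries were the lowest and the day-3 controls the highest of all 12.

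**Figure D2:**
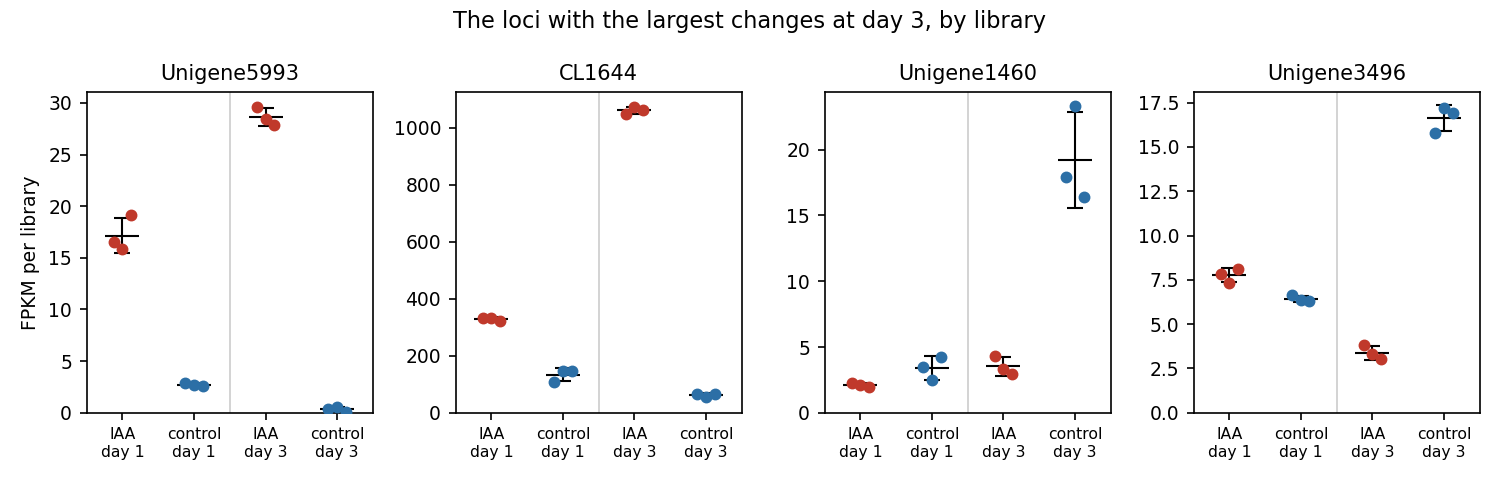
FPKM per library of Unigene5993, cluster CL1644, Unigene1460 and Unigene3496 at day 1 (left of each grey line) and day 3 (right), with IAA in red and controls in blue. Points are libraries, and bars give the mean and SD of 3. At day 3 the groups are apart in all 4 panels, with 1061 FPKM in IAA and 62.4 FPKM in controls for CL1644, and for the loci that fell the day-3 controls are the highest group.

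Single sequences gave 4178 (29.7%) higher and 1165 (8.28%) lower of 14065 by limma, with 6627 at an unadjusted p under 0.05. By at least 1 on the log2 scale, 328 (2.33%) were higher and 47 (0.334%) lower, and with a pseudocount of 0.1 FPKM 1433 were higher by that much. All 3 IAA libraries lay above all 3 controls for 5407 sequences (38.4%) and below them for 1850 (13.2%). Unigenes supplied the larger share of rises. Among loci, 41.7% of the 9133 Unigenes were higher and 8.61% lower, whereas clusters were split almost evenly, with 25.4% of 1911 higher and 22.1% lower. Clusters were more abundant, with 284 at a mean of 1 to 5 FPKM, against 5708 Unigenes. Within that class 46.4% of Unigenes and 40.8% of clusters were higher. The shares were 44.8% and 33.5% from 5 to 20 FPKM, and 23.8% and 18.4% from 20 to 100 FPKM. At 100 FPKM or more both were 29.3%.

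Contigs 2 and 10 of CL1644 rose most among single sequences that had at least 5 FPKM in either group and no overlap. This order holds for the pseudocount of 1 FPKM. With 0.1 FPKM, Unigene5993 changed by 6.14 in log2 units, against 5.02 for contig 2 and 5.04 for contig 10. CL1644.Contig2_All was at 776.2, 792.88 and 797 FPKM with IAA and at 24.58, 20.88 and 27.86 FPKM in controls, and so 4.97 ± 0.14 higher in log2 units (SE; limma, adjusted p = 7.99e-10). For CL1644.Contig10_All the values were 105.99, 117.64 and 109.96 FPKM with IAA and 2.14, 3.87 and 4.26 FPKM in controls, a change of 4.70 ± 0.22 (limma adjusted p = 4.90e-08). Both contigs had groups that were far apart.

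The other contigs of CL1644 did not all move with these. Contig 8 did, at 126.87, 125.38 and 116.39 FPKM with IAA and at 5.83, 3.66 and 4.3 FPKM in controls (log2 change 4.49 ± 0.15, limma adjusted p = 4.02e-09). Contig 1 rose less, to 8.96 ± 1.10 FPKM with IAA against 1.19 ± 0.673 FPKM in controls (SD, n = 3 each; log2 change 2.22 ± 0.22, limma adjusted p = 1.97e-05). Contig 5 was at 25.55, 26.89 and 26.38 FPKM with IAA and at 25.28, 24.1 and 25.14 FPKM in controls, a log2 difference of 0.08 ± 0.04 that did not pass the test (limma adjusted p = 0.110). Over all 12 libraries that contig stayed between 23.09 and 26.89 FPKM. Contig 5 held 2.48% of the cluster's summed FPKM with IAA and 39.8% in controls, and contig 2 held 74.3% with IAA and 39.2% in controls. Of the 7 contigs of CL1644 that were tested, 5 were called higher and 0 lower by limma.

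Cluster CL717, the source of the contig with the largest fall by the same rule, showed the opposite relation between a contig and its sum. CL717.Contig9_All was listed at 0 in 2 IAA libraries and at 0.95 FPKM in the other, against 5.22, 9.91 and 6.25 FPKM in controls. The log2 change was -2.66 ± 0.66 (SE; limma adjusted p = 0.0087), and the groups did not overlap although the controls varied widely. The sum of its 7 contigs was 26.23, 25.28 and 25.7 FPKM with IAA and 26.48, 26.31 and 25.6 FPKM in controls, with overlapping groups and a log2 difference of -0.02 ± 0.04 (limma adjusted p = 0.660). Contig 9 held 1.23% of that sum with IAA and 27.3% in controls. Within the cluster, contig 7 was at 5.24, 4.15 and 0 FPKM with IAA and listed at 0 in all 3 controls, and it was below the mean level needed for testing. By that rule, Unigene1460_All had the second largest fall as a single sequence (log2 change -2.15 ± 0.17, limma adjusted p = 4.33e-06).

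**Figure D3:**
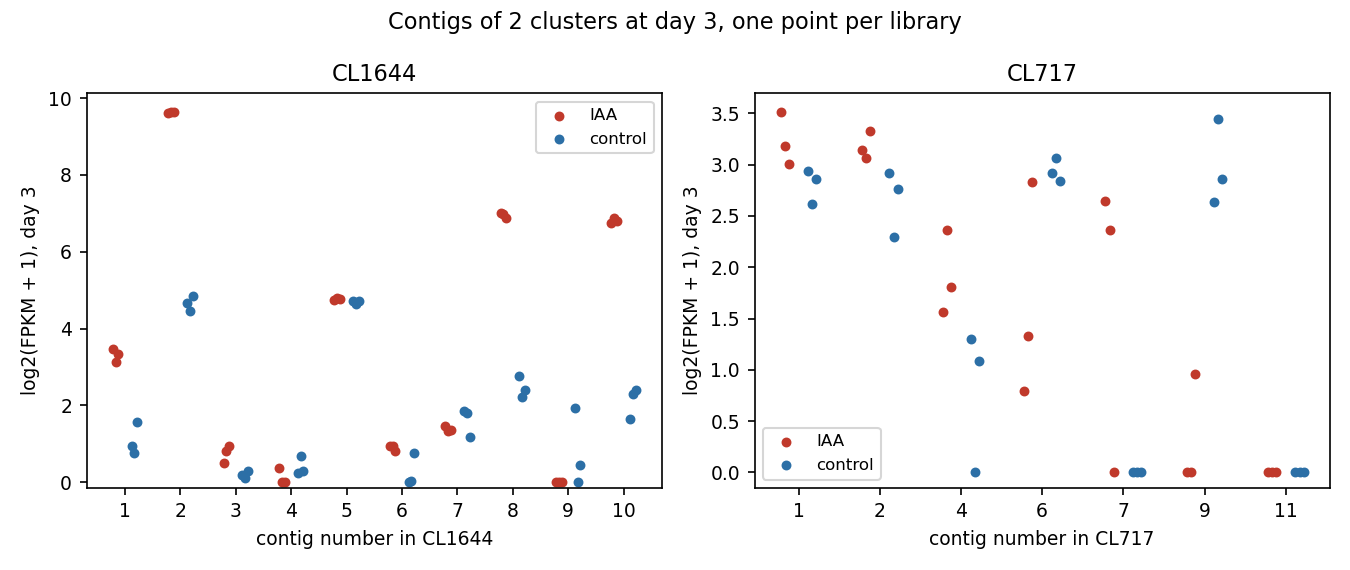
Levels of the contigs of clusters CL1644 (left) and CL717 (right) at day 3 as log2(FPKM + 1), 1 point per library, with IAA in red and controls in blue. In CL1644 contigs 2, 8 and 10 are several units higher with IAA while contig 5, between 24.1 and 26.89 FPKM, is level in all 6 libraries. In CL717 contig 9 is high in the controls while the other contigs lie near or above them with IAA, apart from contig 6.

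CL717 was not alone in this. In the 1519 clusters with at least 2 tested contigs, 315 had contigs called higher and none lower, 297 had contigs called lower and none higher, 84 had contigs called in both directions and 823 had no contig called. Among the 84 with both, the cluster's sum was called higher in 17 and lower in 24 and was not called in 43. Conversely, the sum was called in 212 of the 823 clusters without a called contig, 80 higher and 132 lower. Over all 4932 tested contigs, 101 in 72 clusters were higher by at least 1 on the log2 scale, and the sum was also called higher for 79 of them. Another 23 contigs in 20 clusters were lower by at least 1, and the sum was also lower for 12. FPKM of contigs in the same cluster rest on how reads were shared between similar sequences, so values of single contigs are uncertain where the cluster's sum did not move with them. How this was done is not given here.

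Low loci carried most of the rises under each scaling but quantile normalization. Those of 1 to 5 FPKM were 5992 of the 11044 loci tested. Loci of 1 to 5 FPKM made up 2767 of the 4290 higher calls with FPKM as deposited, 2045 of 2904 with median-of-ratios size factors, 2667 of 3894 with a common sum and 2861 of 4525 when scaled on abundant sequences, but 453 of 1550 after quantile normalization. With FPKM as deposited, 2767 of the 5992 loci with a mean of 1 to 5 FPKM were higher and 82 lower by limma, and the median log2 change was 0.39. From 5 to 20 FPKM, 781 of 1814 were higher and 191 lower (median 0.12). From 20 to 100 FPKM the order turned, with 585 of 2702 higher and 773 lower (median -0.03). Of the 536 loci with a mean of at least 100 FPKM, 157 were higher and 163 lower (median -0.01). Over all tested loci the median was 0.21.

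The same class differences appeared in library totals. Sequences of 1 to 5 FPKM summed to 15450 ± 47.3 FPKM with IAA and 11265 ± 169 FPKM in controls (SD, n = 3 each), a ratio of 1.37. Those under 1 FPKM summed to 5114 ± 43.6 FPKM with IAA and 3491 ± 110 FPKM in controls, a ratio of 1.46. In the class of 5 to 20 FPKM the ratio was 1.07, in that of 20 to 100 FPKM 1.01, and above it 1.03. The groups did not overlap in any of these 5 classes, and the exact two-sided permutation test gave p = 0.1 for each, the smallest that 3 libraries against 3 allow.

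With FPKM as deposited, the rise of low sequences was seen in Unigenes more than in single contigs, and the gap between them was not tested. In the class of 1 to 5 FPKM, 2419 of 5708 Unigenes were called higher (42.4%) and 58 lower, whereas 213 of 1607 contigs were higher (13.3%) and 51 lower. From 5 to 20 FPKM, 43.2% of 1533 Unigenes and 11.1% of 1836 contigs were higher. Clusters whose sum was 1 to 5 FPKM, which are not the clusters of those contigs as a set, had 116 of 284 higher (40.8%) and 7 lower, and those of 5 to 20 FPKM had 94 of 281 higher (33.5%) and 34 lower.

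Without the pseudocount, the ratio of the IAA mean to the control mean peaked at 0.86 on the log2 scale among Unigenes of 1 to 5 FPKM, a 1.82-fold ratio. Unigenes of 5 to 20 FPKM had a pair of peaks, at -0.02 and 0.92 on the log2 scale. Those of 20 FPKM or more had a main peak at -0.04 (density 2.19) and a far lower one at 0.88 (density 0.153). Log2 ratios between 0.5 and 1.2 were held by 51.8% of Unigenes of 1 to 5 FPKM, 32.6% of those of 5 to 20 FPKM and 8.51% of those of 20 FPKM or more. The mirrored range, from -1.2 to -0.5, held 2.28%, 2.87% and 0.899% of them, in the same order of classes. For contigs the main peak lay at -0.02, -0.04 and -0.04 in the 3 classes. In the range from 0.5 to 1.2 were 17.7%, 6.87% and 3.22% of them, against 10.1%, 4.47% and 1.95% in the mirrored range. These ranges were chosen after the densities were seen.

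**Figure D4:**
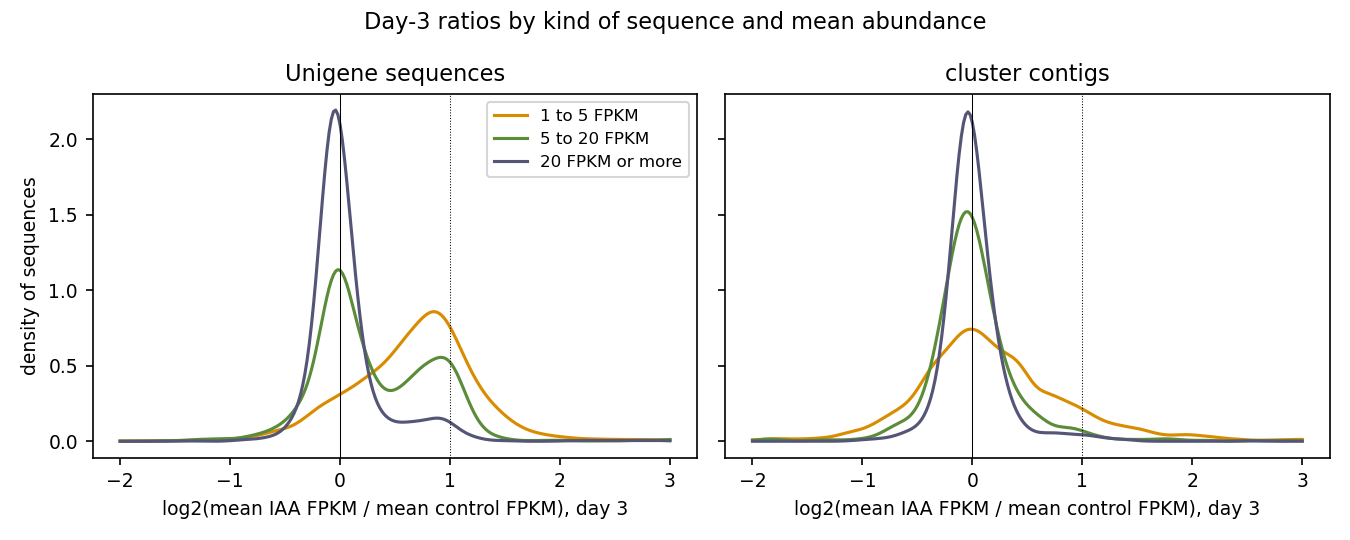
Density of the log2 ratio of mean IAA to mean control FPKM, as deposited, at day 3 for Unigene sequences (left) and cluster contigs (right), in 3 classes of mean FPKM, with lines at 0 and 1. The curves of low Unigenes peak at 0.86, those of 5 to 20 FPKM have peaks at -0.02 and 0.92, and all contig curves peak near 0.

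The excess of rises depends on the scaling between libraries. Higher calls were 78.2% of all calls among sequences and 78.0% among loci with FPKM as deposited, and 82.3% and 82.8% when libraries were scaled on abundant sequences. Scaling to a common sum gave 65.9% and 66.1%. Median-of-ratios size factors gave 40.8% and 44.8%, with the median of all features moved by -0.18 and -0.16, and quantile normalization gave 47.6% and 40.9%, with shifts of -0.17 and -0.23. Sequences of 1 to 5 FPKM stayed mainly higher with IAA under 3 of the scalings, with 1965 higher and 366 lower by median-of-ratios size factors (median log2 change 0.22), 2488 and 146 with a common sum (median 0.46) and 2740 and 102 when scaled on abundant sequences (median 0.36). Quantile normalization forces the same distribution on every library and so can remove the shift of a class, and under it the same sequences gave 549 higher and 566 lower calls with a median of 0.004. Sequences of 20 FPKM or more gave 273 higher and 2521 lower by median-of-ratios size factors (median -0.26). With a common sum they gave 493 and 1322 (median -0.09). Scaling on abundant sequences sets the median of that class near 0 by design. Any shift of the low class is thus relative to the abundant class. The 4 named loci kept their directions and calls under each scaling tried.

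The 255 loci with large rises comprised 228 Unigenes and 27 clusters, with a median level of 6.10 FPKM with IAA and 1.47 FPKM in controls, and together they summed to 9540 FPKM with IAA and 2610 FPKM in controls. The higher of the IAA and control means at day 3 was under 5 FPKM for 110 of them and at least 100 FPKM for 17. Across all 11044 loci these counts were 5892 and 574, and 9133 loci were Unigenes. By the mean over the 12 libraries, 145 of the 255 were in the class of 1 to 5 FPKM and 14 were at 100 FPKM or more. Of all 11044 loci, 5992 and 536 were in these classes. The 255 loci had a median log2 change of 1.24 at day 3 and 0.10 at day 1, where 67 were called higher, 27 lower and 161 neither. The limma interaction was called higher for 225 of them, against 3907 of all 11044 loci (35.4%), but these loci were picked on the day-3 difference that enters the interaction.

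Set beside the day-1 controls, the 3 day-3 IAA libraries lay above all of them for 126 of the 255 loci, below all for 37 and overlapped them for 92. The 3 day-3 controls lay below all day-1 controls for 187. Across all 11044 loci these counts were 1501 (13.6%) for IAA above, 4262 (38.6%) for IAA below and 6409 (58%) for day-3 controls below. Both comparisons share the day-1 controls, the 255 loci were chosen on the day-3 difference, and the design text does not settle whether the same tissue was taken on each day, so these counts are a description.

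The 26 loci with large falls comprised 24 Unigenes, where 9133 of all 11044 loci were Unigenes. These 26 loci summed to 258 FPKM with IAA and 701 FPKM in controls. Their median log2 change was -1.17 at day 3 and -0.02 at day 1, where 7 were called lower and 3 higher. The day-3 controls lay above all day-1 controls for 21 of them, against 1582 of all loci (14.3%). The day-3 IAA libraries lay below all day-1 controls for 12, against 4262 of all loci (38.6%). They lay above all day-1 controls for 7, against 1501 of all loci (13.6%). The limma interaction was called lower for 23, against 846 of all loci (7.66%), with the same link to how they were picked. For comparison, IAA at day 1 gave 711 higher loci (6.44%) and 1380 lower (12.5%) by limma.

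More sequences were listed at 0 in controls. The number of sequences listed at 0 per library was 7127 to 7187 with IAA and 7729 to 7934 in controls, without overlap, and 2353 sequences were listed at 0 in all 6 libraries. Above 0 in every IAA library and listed at 0 in every control were 184 sequences, 130 Unigenes and 54 contigs, with a median of 0.338 FPKM with IAA and a highest mean of 15.9 FPKM. The reverse held for 72 sequences, 48 Unigenes and 24 contigs, with a median of 0.123 FPKM in controls and a highest mean of 4.58 FPKM. Most were very low, with 166 of the 184 and 66 of the 72 under 1 FPKM. A value listed at 0 does not show absence, since read totals are not given.

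Changed Unigenes were not spread evenly along the numbers in their IDs. In ranges of 2000 numbers, the share of tested Unigenes called higher was 25.6% for numbers 1 to 2000, then 39.3%, 42.7% and 47.5%, and reached 51.1% for 8001 to 10000. It lay between 30.6% and 37.6% in the ranges from 20001 to 30000, and was 6.58% of 76 Unigenes for 30001 to 32000. Within the class of 1 to 5 FPKM the first 5 ranges gave 35.9%, 48.3%, 53.6%, 53.3% and 55.3%. The median log2 change per range went up to 0.42 at day 3 and stayed between -0.09 and 0.07 at day 1.

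Neighbours in that numbering also had similar changes. Over 5871 pairs of tested Unigenes with consecutive numbers, the day-3 log2 changes had Pearson's r of 0.345 and Spearman's rho of 0.496, as a description across sequences that share libraries and abundance. At a distance of 100 numbers the values were 0.214 and 0.310, and at 1000 they were 0.0556 and 0.0816. At day 1, consecutive pairs had 0.0196 and 0.0264. Within the class of 1 to 5 FPKM the day-3 values for consecutive numbers were 0.166 and 0.175. The labels do not say what the numbering follows.

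**Figure D5:**
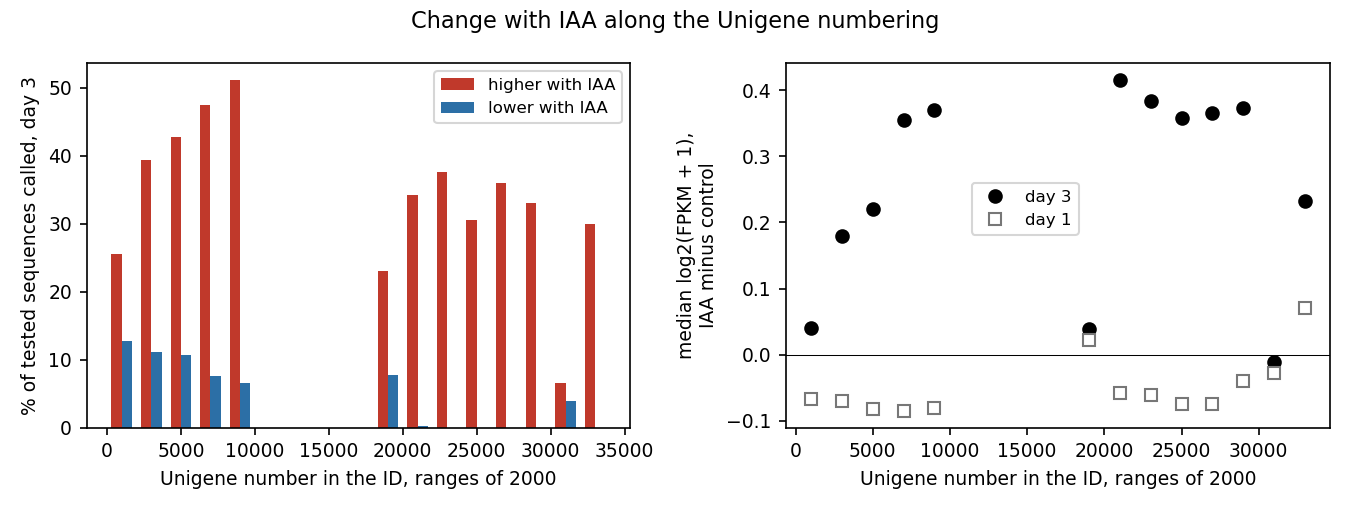
Changes with IAA along the number in the Unigene ID, in ranges of 2000. Left, the percentage of tested sequences called higher (red) or lower (blue) at day 3, and right, the median difference between IAA and control in log2(FPKM + 1) at day 3 (filled circles) and day 1 (open squares). Higher calls go from 25.6% in the first range to 51.1% in the fifth, and ranges with fewer than 20 tested sequences are left out.

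The authors' deposited table of changed sequences for day 3 lists 2307 IDs, 1945 higher and 362 lower with IAA. In the authors' deposited table the smallest log2 ratio is 1.00 in size and the largest q-value is 0.000995. Of the 1945 listed higher, 1410 are Unigenes and 1583 have an IAA mean under 5 FPKM. Their median log2 ratio in the authors' deposited table is 1.36, with 58.1% of them under 1.5. For comparison, 23287 of all 30780 sequences are Unigenes. By the mean over the 12 libraries, 16715 of all sequences were under 1 FPKM and 7315 at 1 to 5 FPKM. The filter used here left 566 of those listed higher and 248 of those listed lower untested. The 362 listed lower comprise 69 Unigenes and 293 contigs, with a median of -2.39 in the authors' deposited table. The libraries of the groups were separate for 1657 of those listed higher (85.2%) and for 140 of those listed lower (38.7%). Among the 14065 sequences tested here these shares were 38.4% and 13.2%, and the listed IDs were picked on these same libraries.

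Most of the listed rises that could be tested were also called here, and fewer of the listed falls were. Of the sequences that the authors' deposited table lists as higher, 1379 were tested here and 1295 of them were called higher by limma. Of those it lists as lower, 114 were tested and 67 were called lower. None was called in the opposite direction. Both rest on the same libraries with identical FPKM, so this overlap is no independent check. The mean of the higher group rested on 1 library above 0 in 88 of those listed higher and 87 of those listed lower. For the named IDs the authors' deposited table gives log2 ratios of 6.32 for Unigene5993, -2.44 for Unigene1460, -2.30 for Unigene3496, 5.01 for CL1644.Contig2_All, 5.02 for CL1644.Contig10_All and -4.48 for CL717.Contig9_All, without a pseudocount of 1 FPKM.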

How the data were processed

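RNA-seq of Gracilariopsis lemaneiformis strain 981 was analysed from the FPKM table that the authors deposited, with units per the file headers. The authors also deposited a table of changed sequences whose headers name log2 ratios, p-values and q-values; the sources used here do not give the test behind it. Bowtie2 2.2.5 is named in the submitters' processing notes without its role. Per the labels' protocols, RNA came from tissue ground in liquid nitrogen and went through a plant column kit and Illumina library preparation. Not given in the sources used here are the assembler, the quantifier and read filters.

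FPKM of contigs sharing the ID text before ".Contig" were summed per locus. A model of 4 group means was fitted to log2(FPKM + 1) of all 12 libraries in limma 3.58.1 (R 4.3.3) with a variance trend, for sequences or loci with a mean of at least 1 FPKM, with two-sided tests and Benjamini-Hochberg adjustment over all of them. Interactions are the day-3 minus the day-1 effect. Named IDs are the 2 largest changes per direction among sequences and among loci with adjusted p under 0.05, a mean of at least 5 FPKM in either day-3 group and no overlap between libraries; contigs of their clusters are given by number. No gene names or sequences were available for the IDs, so no gene lists were used. The members and rules were chosen with earlier results of these data known. Scripts were tested on simulated data. In the 2050 low Unigenes used to estimate depth, 73.9% of 10913 values came within 0.1 of whole reads, against 33.6% of 539 values for contigs. Reads were not recovered for the other sequences, and no count test was run. With depth unknown, no counting intervals are given. Alternatives were other pseudocounts, filters and scalings, a replicate block, the day-3 libraries alone, no variance trend, and each day-3 library left out.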

Additional observations from a re-analysis of the deposited data

Results flagged for a closer look

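The IAA effect differed between day 3 and day 1 by limma's interaction contrast, adjusted over all sequences or loci tested, for each of the named IDs except CL717.Contig9_All (-1.34 ± 0.93, limma adjusted p = 0.299). Among loci, the difference of the day-3 minus the day-1 effect on the log2 scale was 2.18 for Unigene5993, 2.76 for CL1644, -1.67 for Unigene1460 and -2.25 for Unigene3496. Among sequences it was 3.42 for CL1644.Contig2_All, 2.99 for CL1644.Contig10_All and -1.67 for Unigene1460_All. The tissue taken may have differed between the days, and its part in these differences was not tested.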

How the results depend on the processing

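The named IDs kept their direction and passed the limma threshold at day 3 under every alternative that tested them, with CL717.Contig9_All left untested by a filter at 5 FPKM. With a pseudocount of 0.1 FPKM, 1433 sequences and 1390 loci were higher by at least 1 on the log2 scale, and with 0.5 FPKM 654 and 570. With a filter at a mean of 5 FPKM, which tests fewer features, 1541 sequences and 1527 loci were higher, 143 and 110 higher by at least 1, and 23 and 13 lower by at least 1. Median-of-ratios size factors gave 4138 sequences and 3578 loci lower, 207 and 153 higher by at least 1, and 97 and 41 lower by at least 1. Scaling to a common sum gave 1939 sequences and 1998 loci lower, 764 and 696 higher by at least 1, and 76 sequences lower by at least 1. Quantile normalization gave 1738 sequences and 1550 loci higher, 1910 and 2236 lower, 168 and 123 higher by at least 1, and 74 and 44 lower by at least 1. The causes were not tested. Without the filter higher calls were 80.1% of sequence calls and 80.0% of locus calls, and with the filter at 5 FPKM 59.1% and 57.2%. Leaving out each day-3 library gave 3425 to 3684 sequences and 3682 to 3902 loci higher. With a replicate block, 3968 sequences were higher and 1103 lower, and 4185 loci higher and 1150 lower. Libraries of the same number showed no shared deviation (correlations of 0.00126, 0.00741 and 0.000234). With 3 libraries a group this cannot show whether a number marks a shared culture, and no label says so. Depth limits the low class, where 1 read was worth a median of 0.270 FPKM in the 2050 Unigenes used to estimate depth. They were picked with a floor on their lowest value above 0, which leaves out sequences with smaller steps.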
